A study of Oryza sativa with 6 samples.

Results

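Cytochrome P450 genes that carry a standard CYP name were read in shoot tips of rice seedlings lacking *OsRDR1*, an RNA-dependent RNA polymerase of the small RNA pathways. A gene was taken when the array annotation, or the symbol or a synonym in the rice gene table, was CYP followed by a family number and a letter. The tables name 39 such genes, and 29 of them have at least 1 probe set of their own, out of 17905 genes read on the array. The 10 others (*CYP701A19*, *CYP707A7*, *CYP714B1*, *CYP714B2*, *CYP734A2*, *CYP734A5*, *CYP78A11*, *CYP90A3*, *CYP90B2* and *CYP90D2*) were not analysed here. The 29 genes fall into 14 CYP families and were covered by 34 probe sets, and where a gene had several, it was read on the brightest one, judged by the mean of the 6 arrays. P450 genes known to the tables only by a locus number were not taken.

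The mutant plants, *Osrdr1*, were homozygous for an insertion of the retrotransposon *Tos17* in *OsRDR1*, and the WT plants were their siblings without it. Both came from 1 heterozygous insertion line of the cultivar Hitomebore, which was kept heterozygous through repeated selfing before the genotypes were separated, a scheme meant to leave them alike outside *OsRDR1*. Each genotype thus stands for 1 line. Seeds of both genotypes spent 2 days in the dark at 28 °C, after which the seedlings were kept at 26 °C in greenhouse light (16 h, then 8 h dark) for roughly 48 h. Shoot tips gave 3 arrays of *Osrdr1* and 3 of WT, labelled as biological replicates, and no agent was applied to either genotype. The labels do not say how many seedlings made up a replicate, and p-values measure the spread between these samples.

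P450 enzymes are haem proteins of the endoplasmic reticulum or the plastid, most of which use oxygen and electrons from a reductase to add a hydroxyl group to a small molecule. In plants they stand at committed or final steps of hormone pathways. Some make brassinosteroids, gibberellins and jasmonate precursors, and others remove active abscisic acid, brassinosteroids and gibberellins. In rice, further families make the diterpenoid phytoalexins, which are antimicrobial compounds, and their genes lie partly in clusters along the chromosomes.

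All values are on the log2 scale of RMA, a method that corrects, equalizes and combines the probes of each array, so a difference of 1 is a doubling of signal. Array medians were 4.87 to 4.96, and a value near or below them cannot be told from background, since the files hold no detection calls. Pairs of *Osrdr1* arrays correlated at 0.9959 to 0.9976, pairs of WT arrays at 0.9908 to 0.9961 and pairs across genotypes at 0.9903 to 0.995. WT replicate 2 stood apart on a few genes of grain and low oxygen, such as *AMY1.1*, an alpha-amylase, which was at 10.45 there and at 3.33 to 3.73 on the other 5 arrays, and *PDC1*, a pyruvate decarboxylase, at 8.55 against 3.74 to 4.13. WT replicate 3 gave the lowest of the 6 values for 11 of the 29 P450 genes (37.9%), and for 36.1% of all genes. *OsRDR1* itself was not matched to a probe set, so the genotype labels could not be checked on the arrays. Of the markers of shoot meristem and leaf, 7 were read, with mean levels of 7.83 to 8.43 on the *Osrdr1* arrays and 8.47 to 9.15 on the WT arrays, but the members went both ways. *OSH71*, a class I KNOX homeobox gene of the shoot meristem, fell by 2.43 (adjusted p = 0.0457, limma), while *RBCS*, the small subunit of Rubisco in leaves, was higher by 0.52 (adjusted p = 0.0412). Of those not called, *OSH1* was at -2.48, *OSH6* at -0.78 and *OSH43*, below the array medians throughout, at -0.17. *FON1* was at 0.17 and the leaf gene *CAB2R* at 0.24. The *OSH* genes read were thus all lower and the leaf genes *RBCS* and *CAB2R* higher, but only *OSH71* and *RBCS* were called. Their part in the P450 values was not tested.

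Across the 29 P450 genes, a single one differed past the threshold. *CYP707A6* was higher in *Osrdr1* and 0 genes were lower (1, *CYP734A6*, at an unadjusted p under 0.05), by limma with Benjamini-Hochberg adjustment over all 57258 probe sets and a threshold of 0.05. Among the probe sets as a whole, 2.08% were called. Among all genes on their brightest probe set the share was 4.57% in either direction and 3.44% in the higher direction, so 1 of 29 is near the background. The median log2 difference of the P450 genes was 0.08, against 0.00 over all genes, and the differences ran from -0.34 to 0.87, against -2.85 to 2.22 over all genes. Values above 0 were found for 21 of the 29, against 9125 of 17905 genes.

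**Figure D1:**
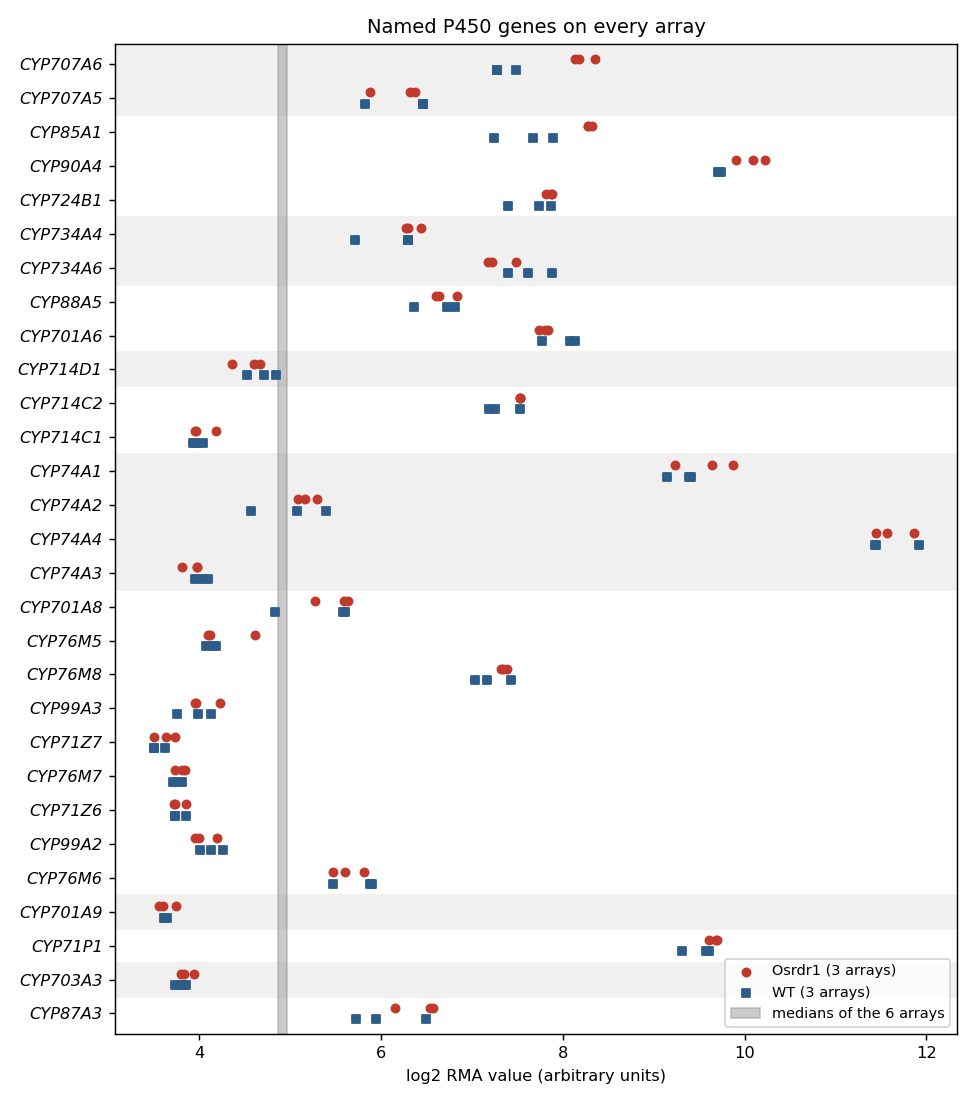
Log2 RMA value (x axis, arbitrary units) of each of the 29 named P450 genes (rows, grouped by role with shaded bands) on 3 *Osrdr1* arrays (red circles) and 3 WT arrays (blue squares). The grey bar spans the medians of the 6 arrays, and *CYP707A6* at the top has its *Osrdr1* values at 8.13 to 8.35 and its WT values at 7.28 to 7.49.

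The *Osrdr1* and WT values did not overlap for 4 of the 29 P450 genes (*CYP707A6*, *CYP85A1*, *CYP90A4* and *CYP71P1*), which is 13.8%, against a background of 34.6% of all genes. An unadjusted p under 0.05 was reached by 4 as well (*CYP707A6*, *CYP85A1*, *CYP90A4* and *CYP734A6*), again 13.8%, against 27.7% of all genes. The P450 genes included more dim probe sets. The mean over the 6 arrays lay below 4.91, the median probe set, for 11 of the 29 (37.9%), against 16.7% of all genes, and those 11 genes had differences between -0.16 and 0.14. Among the 18 brighter P450 genes, 4 reached the unadjusted threshold (22.2%) and 1 was called (5.56%), against 31.4% and 5.39% of the brighter genes of the array. The median absolute difference was 0.138 for the P450 genes and 0.143 for all genes.

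Abscisic acid, the hormone of dormancy and drought responses, is inactivated by the 8′-hydroxylases of the CYP707A family, and 2 of the rice genes were read. *CYP707A6* was at 8.18, 8.13 and 8.35 on the *Osrdr1* arrays and at 7.49, 7.28 and 7.28 on the WT arrays. The lowest *Osrdr1* value lay 0.638 above the highest WT value, which exceeds the range within either genotype (0.220 in *Osrdr1* and 0.210 in WT). The mean was 8.22 ± 0.12 in *Osrdr1* and 7.35 ± 0.12 in WT (SD, n = 3 each), a log2 difference of 0.87 (SE 0.0976, 95% interval 0.640 to 1.097), or 1.83-fold, with an adjusted p of 0.0134 by limma. The call was lost in most fits on fewer arrays: the difference stayed between 0.80 and 0.94 when any 1 array was left out, but the adjusted p then ran from 0.0276 to 0.0879 and was under 0.05 in 1 of the 6 fits, the one without WT replicate 3. Its probe set is of a kind that can match several transcripts of a gene family.

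*CYP707A5*, its paralogue, was at 5.88, 6.38 and 6.32 on the *Osrdr1* arrays and at 6.46, 6.46 and 5.82 on the WT arrays. The groups overlapped throughout, with a difference of -0.05 (95% interval -0.54 to 0.43, adjusted p = 0.946, limma). Of 16 abscisic acid names listed, 11 matched no gene read, and *ZEP* was the only gene of the list read outside the P450 genes. *ZEP*, the zeaxanthin epoxidase of abscisic acid synthesis, was not called, at a difference of 0.03 (adjusted p = 0.904, limma).

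**Figure D2:**
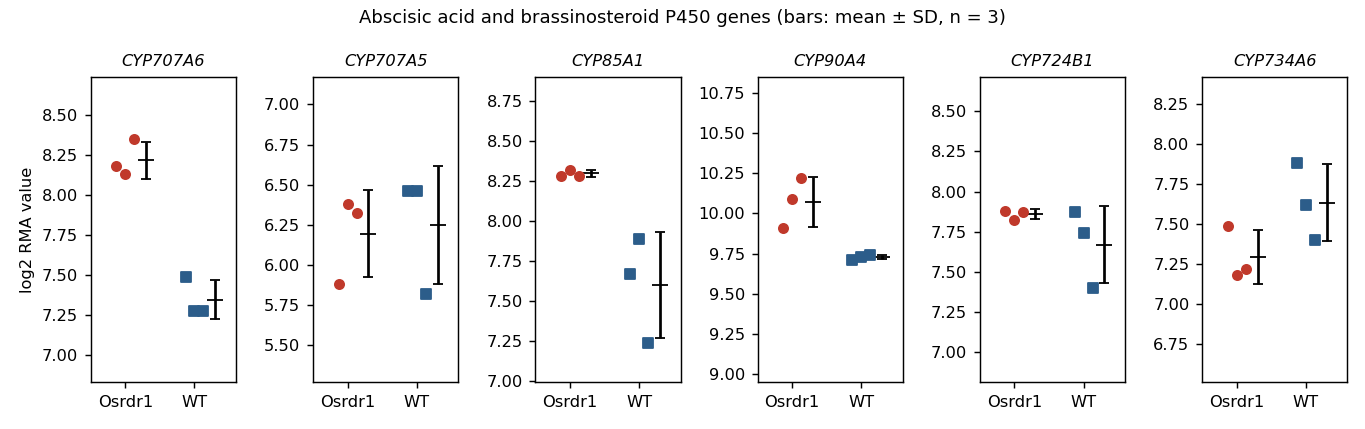
Log2 RMA values (y axis, a scale of equal span in each panel) of 6 P450 genes of abscisic acid and brassinosteroid metabolism, with *Osrdr1* arrays as red circles, WT arrays as blue squares and black bars for mean ± SD (n = 3). The genotypes are separate for *CYP707A6*, *CYP85A1* and *CYP90A4*, and overlap for *CYP707A5*, *CYP724B1* and *CYP734A6*.

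Brassinosteroids are growth-promoting steroids, and 3 P450 genes of their synthesis were read. None passed the test by limma, and 2 had an unadjusted p under 0.05, against 27.7% of all genes. *CYP85A1*, the C-6 oxidase of the late steps, was at 8.28, 8.32 and 8.28 on the *Osrdr1* arrays and at 7.67, 7.89 and 7.24 on the WT arrays. All *Osrdr1* values were above all WT values, and the spread lay almost wholly in WT (SD 0.0209 in *Osrdr1* and 0.330 in WT). The difference was 0.70 (SE 0.156, 95% interval 0.33 to 1.06, adjusted p = 0.0758, limma). It was 0.52 without WT replicate 3, the lowest array, and then passed (adjusted p = 0.0497), and 0.84 without WT replicate 2 (adjusted p = 0.0772).

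*CYP90A4*, a homologue of *CPD* of Arabidopsis, was at 9.91, 10.09 and 10.22 on the *Osrdr1* arrays and at 9.71, 9.73 and 9.74 on the WT arrays. Here the WT arrays were the tight group and all lay below *Osrdr1*, at a difference of 0.34 (SE 0.0942, 95% interval 0.12 to 0.57, adjusted p = 0.131, limma). *CYP724B1*, the gene of the dwarf mutant *d11*, was at 7.88, 7.82 and 7.87 on the *Osrdr1* arrays and at 7.87, 7.74 and 7.40 on the WT arrays. The groups overlapped, WT replicate 3 was again the lowest array, and the difference of 0.19 was not called (adjusted p = 0.585, limma). Without WT replicate 3 the difference of *CYP724B1* was 0.05, and without WT replicate 1 it was 0.29. Its probe set is of a kind that can match related transcripts. The 3 differences of the synthesis genes had a median of 0.34. They stayed above 0 in the settings that could change them, which were other scalings and leaving out an array. Of all 29 P450 genes, 19 kept their direction under every setting, though several settings cannot alter it.

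The CYP734A enzymes inactivate brassinosteroids by hydroxylation. *CYP734A6* was at 7.49, 7.18 and 7.22 on the *Osrdr1* arrays and at 7.88, 7.62 and 7.40 on the WT arrays. It had the lowest difference of all 29 genes, -0.34 (SE 0.142, 95% interval -0.67 to -0.01), but *Osrdr1* replicate 1 lay above WT replicate 3 and the adjusted p was 0.337 by limma. Without WT replicate 1 it was -0.22, and *CYP76M6* (-0.26) and *CYP714D1* (-0.24) were then lower. *CYP734A4* was at 6.44, 6.30 and 6.28 on the *Osrdr1* arrays and at 6.30, 6.30 and 5.71 on the WT arrays, where 1 low array, WT replicate 3, lay apart. The difference of 0.24 (adjusted p = 0.611, limma) was 0.04 without that array.

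Of 8 other brassinosteroid genes, none was called by limma and 2 had an unadjusted p under 0.05. Over all genes, 27.7% had such a p and 34.6% had no overlap. All 8 differences were below 0, with a median of -0.04. The smallest p-values belonged to *GSK1* and *GSK2*, kinases that restrain brassinosteroid signalling. *GSK1* was at 9.13, 8.91 and 9.03 on the *Osrdr1* arrays and at 9.40, 9.39 and 9.27 on the WT arrays, a difference of -0.33 (adjusted p = 0.121, limma). *GSK2* differed by -0.31 (adjusted p = 0.135), also with no overlap, and the receptor gene *BRI1* by -0.01 (adjusted p = 0.974).

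Gibberellins promote stem growth, and the P450 genes on their route were not called in either direction by limma, nor at an unadjusted p under 0.05. The shares over all genes were 4.57% and 27.7%, so few hits would be looked for in so small a group. *CYP701A6*, the ent-kaurene oxidase of the dwarf mutant *d35*, was at 7.74, 7.84 and 7.80 on the *Osrdr1* arrays and at 8.08, 8.13 and 7.77 on the WT arrays. The groups overlapped through WT replicate 3 alone, with a difference of -0.20 (adjusted p = 0.505, limma), and its second probe set gave -0.16 with no overlap (adjusted p = 0.530). Both probe sets are of a kind that can match related transcripts, and the gene lies among close relatives. *CYP88A5*, the ent-kaurenoic acid oxidase, was at 6.84, 6.64 and 6.61 on the *Osrdr1* arrays and at 6.73, 6.81 and 6.36 on the WT arrays, which overlap, with a difference of 0.07 (adjusted p = 0.879, limma).

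*CYP714D1*, known as *EUI*, inactivates gibberellins in the uppermost internode of the rice stem. It was at 4.60, 4.67 and 4.36 on the *Osrdr1* arrays and at 4.53, 4.71 and 4.85 on the WT arrays, below the array medians throughout, with a difference of -0.16 (adjusted p = 0.648, limma). *CYP714C2*, of the same family, was at 7.53 on all 3 *Osrdr1* arrays and on WT replicate 3, and at 7.19 and 7.26 on the other WT arrays. Its difference was 0.21 (adjusted p = 0.440, limma). Its second, dimmer probe set gave 6.25, 5.87 and 6.18 in *Osrdr1* and 5.70, 5.87 and 4.99 in WT, separated by only 0.00526, with a difference of 0.58 (adjusted p = 0.297). Both differences were above 0, of unequal size, and the brighter probe set is of a kind that can match related transcripts. *CYP714C1*, its neighbour on chromosome 12, was below the array medians on every array and differed by 0.06.

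Of the other gibberellin genes, 4 of synthesis and inactivation were read and none was called (0 at an unadjusted p under 0.05, limma), with differences between 0.06 (*KS1*) and 0.35 (*CPS1*). *GA20ox2* differed by 0.16 with overlap (adjusted p = 0.642, limma). Of 4 signalling genes none was called either, and 1 had an unadjusted p under 0.05. Over all genes, 27.7% had such a p and 34.6% had no overlap. *GID1*, the gibberellin receptor, was at 10.06, 10.05 and 10.25 on the *Osrdr1* arrays and at 9.83, 9.69 and 9.81 on the WT arrays, which did not overlap (difference 0.34, adjusted p = 0.111, limma). *SLR1* differed by 0.17 with overlap (adjusted p = 0.548, limma).

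**Figure D3:**
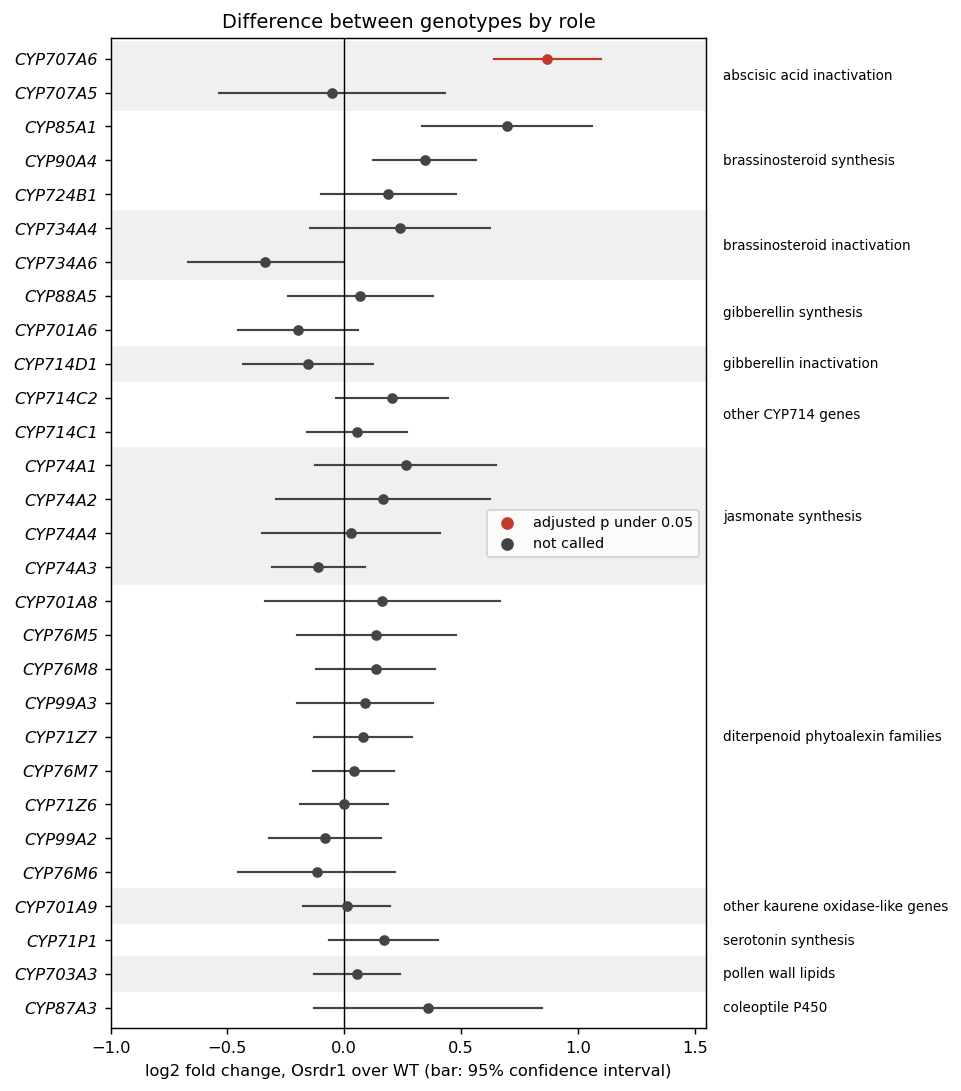
Log2 fold change of *Osrdr1* over WT (x axis) for the 29 named P450 genes (rows, grouped by the roles named at the right), with bars for the 95% confidence interval of the limma fit. *CYP707A6* (red) was the gene called at an adjusted p under 0.05, and the interval lies wholly above 0 for it, *CYP85A1* and *CYP90A4* and just below 0 for *CYP734A6*.

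The CYP74A genes encode allene oxide synthases, plastid enzymes that turn a fatty acid hydroperoxide into the precursor of jasmonate, a hormone of wounding and defence. None of the 4 was called (0 at an unadjusted p under 0.05, limma), against 4.57% called and 27.7% at such a p over all genes. The median difference of the 4 was 0.10. *CYP74A4* was at 11.45, 11.57 and 11.86 on the *Osrdr1* arrays and at 11.92, 11.43 and 11.45 on the WT arrays. The genotypes covered nearly the same range, at a difference of 0.03 (95% interval -0.35 to 0.41, adjusted p = 0.964, limma). *CYP74A1* was at 9.23, 9.64 and 9.87 on the *Osrdr1* arrays and at 9.39, 9.15 and 9.41 on the WT arrays, a difference of 0.26 with overlap (adjusted p = 0.569, limma).

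*CYP74A2* was at 5.09, 5.17 and 5.30 on the *Osrdr1* arrays and at 5.08, 4.57 and 5.40 on the WT arrays, so both the highest and the lowest value were WT (difference 0.16, adjusted p = 0.788, limma). *CYP74A3*, next to *CYP74A4* on chromosome 2, was below the array medians on all 6 arrays and differed by -0.11 (adjusted p = 0.649). Of 5 other jasmonate genes none was called, and 1 had an unadjusted p under 0.05. Over all genes, 27.7% had such a p and 34.6% had no overlap. *JAR1*, which joins jasmonate to isoleucine, was at 8.33, 8.75 and 8.42 on the *Osrdr1* arrays and at 8.21, 8.18 and 8.09 on the WT arrays, without overlap (difference 0.34, adjusted p = 0.236, limma). *LOX2*, a lipoxygenase, differed by 0.20 (adjusted p = 0.551).

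The families of diterpenoid phytoalexin synthesis were the largest group, with 9 genes, and none was called (0 at an unadjusted p under 0.05, limma). These shares were 4.57% and 27.7% over all genes, but 0.47% and 9.19% over the genes below the median probe set. The differences of the 9 genes ran from -0.12 to 0.16 with a median of 0.08, 6 above 0 and 3 below, and 6 of the 9 lay below the median probe set. The exceptions in level were *CYP76M8*, *CYP76M6* and *CYP701A8*. *CYP76M8*, an oxidase of phytocassane and oryzalexin precursors, was at 7.34, 7.39 and 7.32 on the *Osrdr1* arrays and at 7.17, 7.43 and 7.04 on the WT arrays. The *Osrdr1* arrays lay inside the WT range, at a difference of 0.13 (adjusted p = 0.671, limma), and its probe set can match related transcripts.

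*CYP76M6* was at 5.81, 5.61 and 5.47 on the *Osrdr1* arrays and at 5.47, 5.88 and 5.90 on the WT arrays, a difference of -0.12 with overlap (adjusted p = 0.789, limma), and its second, dimmer probe set gave -0.09. *CYP701A8*, a relative of ent-kaurene oxidase that acts in phytoalexin synthesis, was at 5.59, 5.27 and 5.64 on the *Osrdr1* arrays and at 5.60, 5.58 and 4.84 on the WT arrays. Its difference of 0.16 (adjusted p = 0.814, limma) rested on WT replicate 3 and was -0.09 without it. *CYP76M5* had a single raised array, *Osrdr1* replicate 3 at 4.62, with the other 5 arrays at 4.08 to 4.19, all below the array medians, and a difference of 0.14 (adjusted p = 0.756). The remaining genes, *CYP71Z6*, *CYP71Z7*, *CYP76M7*, *CYP99A2* and *CYP99A3*, were between 3.50 and 4.26 on every array, with differences between -0.08 and 0.09. *CYP701A9*, a further relative of ent-kaurene oxidase, was between 3.56 and 3.75.

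Many of these genes lie side by side, which allows the runs to be read as blocks. On chromosome 2, 10 consecutive protein-coding genes included 5 named P450 genes (*CYP76M5*, *CYP76M8*, *CYP71Z6*, *CYP71Z7* and *CYP76M6*) and the diterpene synthase genes *CPS2*, *KSL5*, *KSL6* and *KSL7*. Of the 9 read on the array none was called, and the differences ran from -0.34 to 0.47. The upper end was *KSL5*, at 5.50, 4.85 and 5.34 on the *Osrdr1* arrays and 4.48, 4.71 and 5.08 on the WT arrays, which overlap (adjusted p = 0.367, limma). The entry step of the pathway, *CPS2*, was at 3.27 to 3.52 in *Osrdr1* and 3.53 to 3.65 in WT, far below the array medians (difference -0.17, adjusted p = 0.465). On chromosome 4, *CYP99A3* and *CYP99A2* flank *OsMAS* and *KSL4*, genes of momilactone synthesis, and the 4 genes read there had differences between -0.17 and 0.11 with none called.

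On chromosome 6, *CYP701A9*, *CYP701A8*, *CYP701A19* and *CYP701A6* follow each other, and the 3 that were read differed by -0.20 to 0.16. The gene table gives the name *CYP76M7* to a gene on chromosome 6, although its synonyms include a locus number from the run on chromosome 2, so the identity of that gene is uncertain. Of the 6 genes read from a list of non-P450 diterpenoid genes, which does not hold *OsMAS*, none was called by limma, 0 had an unadjusted p under 0.05, and 5 lay below the array median on every array. Among all genes below the median probe set, 0.47% were called and 9.19% had such a p.

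**Figure D4:**
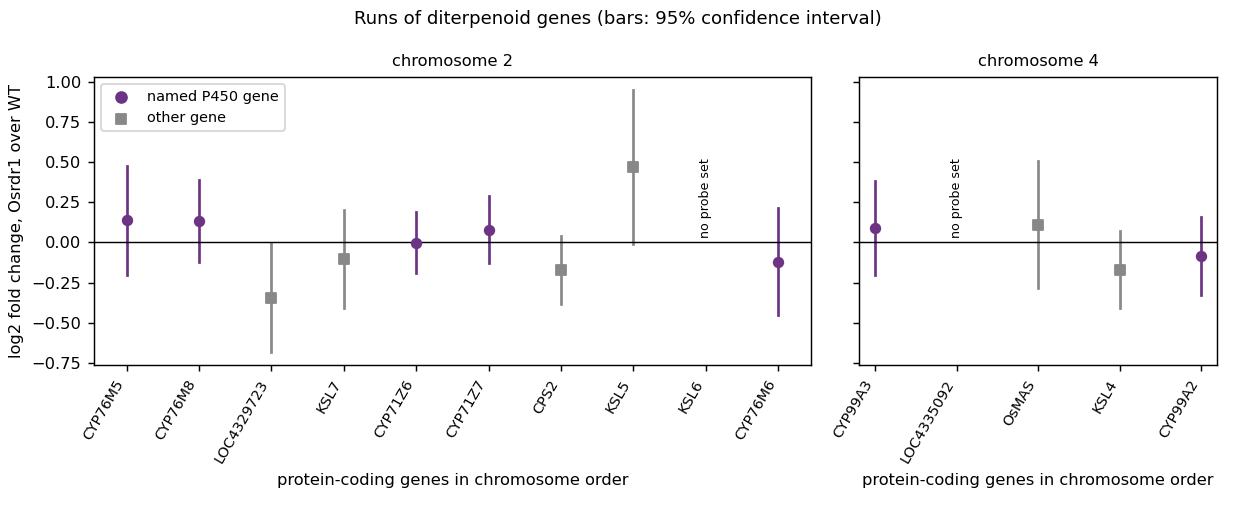
Log2 fold change of *Osrdr1* over WT (y axis, bars for the 95% confidence interval) of the genes in the diterpenoid runs of chromosome 2 (left panel, 10 genes) and chromosome 4 (right panel, 5 genes), in chromosome order and not to physical scale. Named P450 genes are purple circles and other genes grey squares, and all measured genes lie between -0.34 and 0.47.

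The other P450 genes act outside these pathways. *CYP71P1*, the tryptamine hydroxylase of serotonin synthesis known from the *Sekiguchi lesion* mutant, was at 9.61, 9.69 and 9.70 on the *Osrdr1* arrays and at 9.58, 9.61 and 9.31 on the WT arrays. Its groups were separate by a gap of only 0.00205, and the difference was 0.17 (adjusted p = 0.540, limma) and 0.07 without WT replicate 3, while a dim second probe set gave -0.03. *CYP87A3*, described in the rice coleoptile, was at 6.57, 6.54 and 6.16 on the *Osrdr1* arrays and at 6.50, 5.95 and 5.73 on the WT arrays. That was the largest overlapping difference, 0.36, with an SE of 0.208 (adjusted p = 0.527, limma), and it was 0.19 without WT replicate 3 and 0.58 without WT replicate 1. *CYP703A3*, a fatty acid hydroxylase of the pollen wall, was at 3.73 to 3.94 on all arrays, below the array medians, with a difference of 0.06.

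The members whose values over the 6 arrays were most like those of *CYP707A6* were *CYP90A4* (Pearson r = 0.905), *CYP85A1* (0.866), *CYP71P1* (0.684), *CYP724B1* (0.646) and *CYP74A1* (0.622). These are descriptions over 6 arrays that share the genotype split. With the genotype means removed, the coefficients were 0.405, 0.0931, 0.353, 0.561 and 0.530, so the likeness of *CYP85A1* lay almost wholly in the difference between genotypes. The order of members then changed. *CYP74A4* was the most like *CYP707A6* (0.94), followed by the dim *CYP76M5* (0.69), and the dim *CYP714D1* was the most unlike (-0.95).

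**Figure D5:**
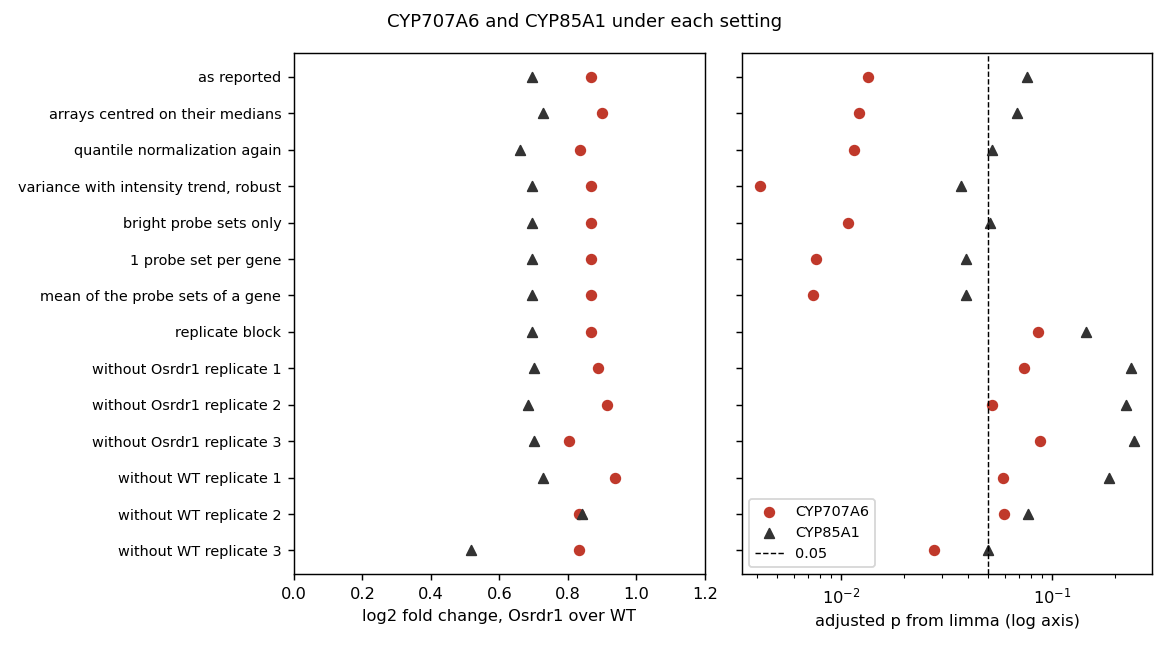
Log2 fold change of *Osrdr1* over WT (left, x axis) and limma adjusted p (right, x axis, log scale, dashed line at 0.05) of *CYP707A6* (red circles) and *CYP85A1* (dark triangles) as reported and under 13 other settings (rows). The fold change of *CYP707A6* stays between 0.80 and 0.94 while its adjusted p crosses 0.05 in 6 settings, and *CYP85A1* is under 0.05 in 4.

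The adjusted p also depends on how many probe sets are tested. When each gene was fitted on 1 probe set and p-values were adjusted over the 17905 genes, 11.5% of all genes were called, and among the P450 genes *CYP707A6* (adjusted p = 0.00762) and *CYP85A1* (adjusted p = 0.0393) passed by limma. *CYP90A4* remained just outside (adjusted p = 0.0557).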

How the data were processed

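Total RNA (6 µg per array) from shoot tips was labelled and hybridised to 6 Affymetrix Rice Genome Arrays. The table deposited by the authors holds log2 values of 57381 probe sets, which the submitters' processing notes credit to RMA in Affymetrix Expression Console, with no version in the sources used. RMA fixes the distribution of every array, so shifts common to most genes cannot be seen, and precision is limited by 3 arrays per genotype. Control probe sets (123) were left out, and the other 57258 went into 1 linear model by genotype alone (lmFit, then eBayes, of limma 3.58.1 under R 4.3.3) with Benjamini-Hochberg adjustment and a threshold of 0.05, since the paper names no test. The fit was tested on simulated data with 200 changed probe sets. It recovered 65% of log2 changes of 1 and 94% of changes of 2, so a gene not called may still differ. Later steps ran in Python 3.11.15.

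Probe sets were named from the array annotation and a rice gene table. Of the tested probe sets, 22436 match 1 gene, 95 match several and 34727 match none. The gene lists were matched by name, and many names matched no gene read. That held for 10 of 14 carotenoid, 10 of 20 brassinosteroid, 17 of 27 gibberellin synthesis and inactivation and 21 of 40 flavonoid and lignin names. An unmatched name does not show that the array lacks the gene. Gene order came from that table, and no coordinates were used. No sequences are shown.

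The P450 genes and the gene lists were chosen with earlier results of these data known. The genes described were those called, *CYP707A6*, the 8 highest and 8 lowest differences, the brightest member of each family with 3 or more, and of each list the genes called and the 2 with the smallest p. Other P450 genes were added to complete their groups. *BRI1*, *KS1*, *OSH1*, *OSH6*, *OSH43*, *CAB2R*, *FON1*, *ADH2* and the neighbours in the gene runs fall outside this rule and were added after their values were seen. Alternatives were other scalings, filters and probe set rules, a replicate block and leaving out each array.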

Additional observations from a re-analysis of the deposited data

How the results depend on the processing

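The log2 difference of *CYP707A6* was 0.80 to 0.94 with any 1 array left out, and past the threshold in 1 of those 6 fits. With the replicate number as a block it was 0.87 at an adjusted p of 0.0857 (limma). That replicate block called 0 probe sets on the whole array, against 1191 without it (5 P450 genes had an unadjusted p under 0.05). Same-numbered arrays correlated in their deviations at 0.14, -0.15 and -0.27, so the numbers were not taken as pairs. In the settings that kept all arrays and no block its adjusted p was 0.00415 to 0.0122.

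The count of P450 genes higher was 1 as reported, 2 with 1 probe set per gene, with the mean of the probe sets of a gene and with a robust variance trend (*CYP85A1* being the second), 0 with the replicate block, 0 with an unadjusted p and at least a 2-fold change, and 0 to 2 with an array left out. It was 0 in the 5 fits without *Osrdr1* replicate 1, 2 or 3 or WT replicate 1 or 2, which called 0 to 181 probe sets in all (6345 to 7358 at an unadjusted p under 0.05), and 2 without WT replicate 3, which called 1220. With 1 probe set per gene, 11.5% of all genes were called, and no such share is given for the mean or the variance trend. The count lower was 0 throughout. The median difference was 0.05 to 0.12 with an array left out. Above 0 were 19 to 22 of the 29 genes in the settings that read all of them.

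Of 366 values for single genes under an alternative, 335 kept direction and side of the threshold and 21 reversed, in 10 genes whose differences are small. *CYP71Z6* was 0.0314 with arrays centred on their medians and 0.0152 after another quantile normalization, and *CYP74A4* was -0.00126 after the latter. With an array left out the ranges were -0.0475 to 0.0398 for *CYP71Z6*, -0.0866 to 0.188 for *CYP74A4*, -0.0886 to 0.291 for *CYP701A8*, -0.0456 to 0.0475 for *CYP701A9*, -0.266 to 0.102 for *CYP707A5*, -0.0209 to 0.101 for *CYP714C1*, -0.0585 to 0.356 for *CYP74A2*, -0.0333 to 0.228 for *CYP76M5*, -0.0676 to 0.157 for *CYP88A5* and -0.0118 to 0.174 for *CYP99A3*. The cause of the reversals was not tested. Signal limits 11 of the 29 genes, which lay below the median probe set.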

Other observations

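Around the P450 genes, calls were found in pathway lists that left out the named P450 genes by construction, each with limma's adjusted p over all probe sets. Over all genes, 4.57% were called, 3.44% as higher, and the lists below are too short for a share to be set firmly against that. The lists were also chosen with earlier results of these data known. Their counts and medians therefore only describe the genes read and are no test of a pathway. Of 14 carotenoid names, 10 matched no gene read. Of the 4 genes read, 2 rose and none fell, and their median difference was 0.56, against 3.44% higher and a median of 0.00 over all genes. *PSY1*, a phytoene synthase at the entry of the pathway that also supplies abscisic acid, was at 10.05, 10.05 and 10.03 on the *Osrdr1* arrays and at 9.31, 9.34 and 9.34 on the WT arrays (difference 0.71, adjusted p = 0.0109), and *PSY2* was higher by 0.90 (adjusted p = 0.0128). Of 19 flavonoid and lignin enzymes without P450s, 2 rose, none fell, and the median was 0.32, against the same 3.44% higher and median of 0.00 over all genes. They were *PAL06*, a phenylalanine ammonia-lyase, at a difference of 0.997 (adjusted p = 0.0192), and *CAD6*, of the cinnamyl alcohol dehydrogenase family, at 0.79 (adjusted p = 0.0381).

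Of 13 cytokinin genes, 1 rose, none fell and the median was -0.01. *LOG*, which releases active cytokinin in the shoot meristem, was at 8.20, 8.29 and 8.14 on the *Osrdr1* arrays and at 7.39, 7.43 and 7.28 on the WT arrays (difference 0.85, adjusted p = 0.0109, limma), while *LOGL10* was not called at -0.37 (adjusted p = 0.0833). Of 4 strigolactone genes none was called, and 2 had an unadjusted p under 0.05. Over all genes, 27.7% had such a p and 34.6% had no overlap. *D14*, the receptor, differed by 0.43 (adjusted p = 0.0973) and *D17* by 0.33 (adjusted p = 0.283), both without overlap. No gene of the list of P450 redox partners, 9 names, was matched.

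Of the marker lists, to be read beside the same 4.57% of all genes called, leaf and shoot meristem had 1 of 7 higher (*RBCS*, 0.52, adjusted p = 0.0412, limma) and 1 lower (*OSH71*). Root had 1 of 3 higher, the silicon transporter gene *LSI1* (0.80, adjusted p = 0.00853), with *WOX11* at -0.69 not called (adjusted p = 0.18). Grain had 1 of 10 higher, the glutelin gene *GLUA2* (0.70, adjusted p = 0.0426), and 7 of its 10 genes lay below the array median on every array. None of 4 low oxygen genes was called, and 1 had an unadjusted p under 0.05, against 27.7% of all genes. That gene was *PDC2*, at -0.30 without overlap (adjusted p = 0.168, limma). *ADH2* was at 9.36 on WT replicate 2 and at 6.23 to 7.40 elsewhere.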
